A study of Mus musculus with 25 samples.

Results

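The set described here is made of 33 of the 20175 probes of a mouse whole-transcriptome panel, and each of the 33 had over 40% of its CD68+ macrophage counts in a single lung region. The members were chosen on the counts of the 12 CD45+CD68+ segments, which are called CD68 segments below, and a probe with no entry in a segment was given a count of 0. A member had at least 15 counts in 1 CD68 segment, more than 40% of its CD68 counts were in that segment, and its share of that segment's counts was at least 4 times its share in any other CD68 segment. The segment that holds a member's counts is called its host. The high level of a member in its host is therefore what the rule selected and is given as a description. The non-immune segment of the same region was not used by the rule, and the host region was tested on the non-immune counts only. Class comparisons of the CD68 counts, given near the end, use the counts that chose the members and are descriptions.

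The sections came from paraffin-embedded lungs of male SP-CI73T mice, in which an isoleucine-to-threonine change in surfactant protein C is switched on when oral tamoxifen removes a neomycin cassette. One mouse served as control at day 0. Its label reads untreated, whereas the design text and the treatment protocol give corn oil. It held healthy regions 1, 3 and 13. The other mouse was taken 14 days after 1 gavage of 175 mg/kg tamoxifen, as the labels state it, and held peri-injured regions 6, 9, 10 and 12 and injured regions 4, 5, 7, 8 and 11. The regions were picked by the appearance of the tissue, and all 24 segments carry the same genotype label. Each class comes from 1 mouse, so the regions of a class are technical replicates, the spread behind each p-value is that between regions and not between animals, p-values are too small for any claim on mice, and a difference that sets healthy regions apart and one between the mice cannot be told apart.

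In this assay a probe is an RNA-binding oligonucleotide with a barcode that ultraviolet light releases from a chosen part of the section, and the released barcodes are counted by sequencing. CD68 is a glycoprotein of the endosomes and lysosomes of macrophages, and CD45 is a surface phosphatase of cells of blood origin. Lung macrophages include alveolar macrophages, which clear surfactant and particles in the airspace, interstitial macrophages in the tissue, and cells derived from monocytes that enter after injury. Surfactant protein C is made by alveolar type 2 cells, which belong to the non-immune compartment. The probes are known here by barcode identifier only. No table used here pairs the identifiers with gene symbols or probe sequences, so that neither the role of a member nor the macrophage label of the segments could be checked.

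CD68 segments held 21955 to 119493 counts and non-immune segments 80259 to 671249, so that 1 count stood for 8.37 to 45.5 counts per 1000000 counts of the segment (CPM) in the former and for 1.49 to 12.5 CPM in the latter. A segment is a pool of cells, and fewer cells with an RNA and less of it per cell cannot be told apart. The reaction without tissue held 1 count, which belonged to no member.

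The 33 members were found in 11 of the 12 CD68 segments. Healthy regions hosted 9, peri-injured regions 14 and injured regions 10. Region 13 hosted 6 members, region 6 hosted 5, region 11 hosted 4, regions 1, 8, 9, 10 and 12 hosted 3 each, regions 4, 5 and 7 hosted 1 each, and healthy region 3 hosted none. In the 11 host segments, the members hosted there made up between 0.0459% (region 7, 1 member) and 0.76% (region 13, 6 members) of the segment's counts. No class was without members.

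The number of members in a host is set here beside sequencing saturation, the share of reads that repeat a molecule already counted. The 6 CD68 segments with a saturation above 95% were those of regions 8, 9, 10, 11, 12 and 13, and they hosted 3 to 6 members each. In the other 6 segments, saturation was 91.3% to 93.6%, and these hosted 0 to 5 members, without following saturation: region 6, at 93.5%, hosted 5 and region 1, at 92.4%, hosted 3, while regions 4, 5 and 7, at 93.1% to 93.6%, hosted 1 each. The highest saturation, 96.6%, was that of region 13, which had the most members, and the lowest, 91.3%, was that of region 3, which had none. The total counts did not order the segments in this way, since region 13, with 35909 counts, hosted 6 members and region 5, with 119493 counts, hosted 1. The part of saturation in the result was not tested.

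**Figure D1:**
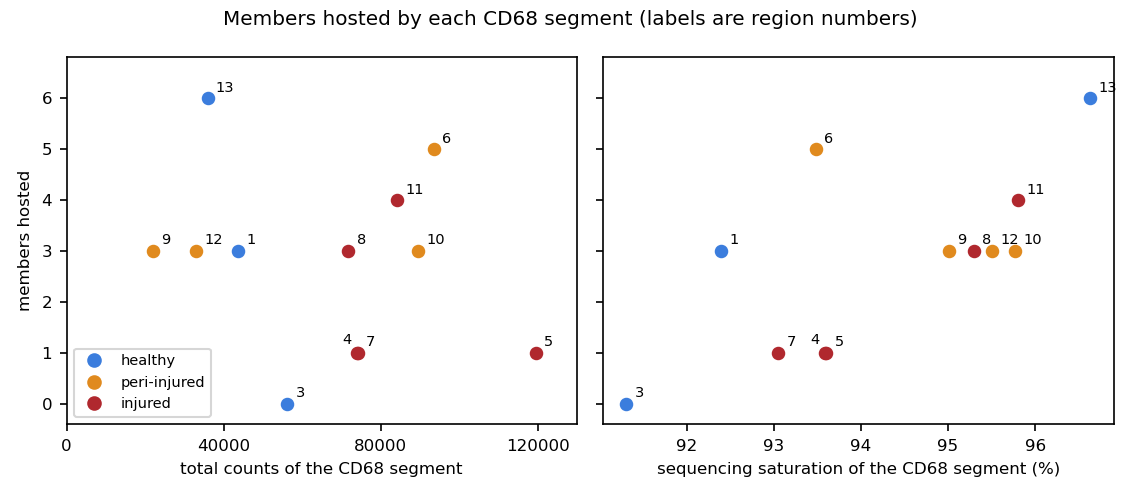
Members hosted by each of the 12 CD68 segments (y axis) against the total counts of the segment (left) and its sequencing saturation in percent (right). Points are segments, labelled by region number and coloured by class. Region 13, at 96.6% saturation, hosts 6 members and region 3, at 91.3%, hosts none.

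Members were probes with a single high CD68 segment. Host counts ranged from 15 to 139 with a median of 47, which corresponds to 279 to 2534 CPM. Over the other 11 CD68 segments, the median level of a member ranged from 0 to 81.0 CPM. The median of these values over the members was 27.9 CPM, against 34.6 CPM for the median level over the 12 CD68 segments of all 20175 probes. Outside its host the median member thus lay near the middle of the panel. The rule itself limits the level there, and 3 members had a median of 0. The host held 46.3% to 87.2% of a member's CD68 counts (median 62.2%) and the larger part of them in 29 members. Its share was 4.41 to 26.4 times the next highest (median 9.35), and 14 members were at least 10 times above it.

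Of the 20175 probes, 806 met the count criterion, 215 met the share criterion, 55 met the ratio criterion and 33 met all of them. RTS0062233 was just inside the count limit with 15 counts in region 1, and RTS0072977 was just outside with 13 counts in region 12. RTS0075115 was just inside the share limit with 46.3% of its counts in region 12, and RTS0066289 was outside with 39.6% in region 13. RTS0079636 was just inside the ratio limit at 4.41 in region 6, and RTS0076007 was outside at 3.72 in region 5. The ratio was the limit with the most probes beside it, since 28 probes failed that criterion alone. No probe with more than 139 counts in its highest CD68 segment was a member, and all of these had another segment within 4 times the highest share.

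**Figure D2:**
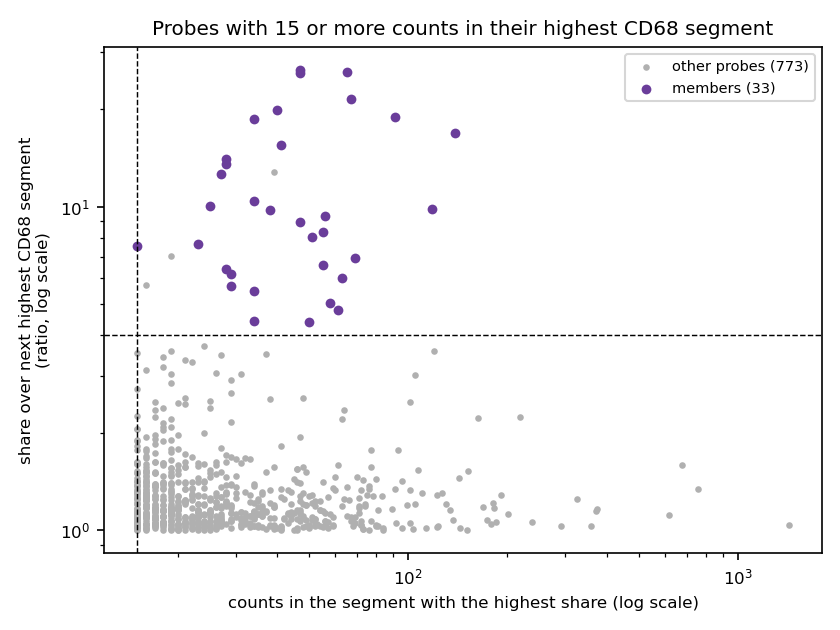
The 806 probes with at least 15 counts in the CD68 segment where their share is highest, by the counts in that segment (x axis, log scale) and by the ratio of that share to the next highest CD68 segment (y axis, log scale). Dashed lines mark 15 counts and a ratio of 4. The 33 members lie between 15 and 139 counts and between ratios of 4.41 and 26.4, and no probe with more than 139 counts passes the ratio.

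The 3 healthy-region members with the most host counts were RTS0061462, RTS0073556 and RTS0073211. RTS0061462 had 91 counts in its host, region 13, against 5 in region 1 and 4 in region 3. It had 12, 0, 12 and 4 counts in peri-injured regions 6, 9, 10 and 12 and 6, 5, 7, 3 and 4 in injured regions 4, 5, 7, 8 and 11. Its host level was 2534 CPM, and the next highest, in region 10, was 134 CPM. In the non-immune segments it lay at 118, 60.2 and 49.8 CPM in healthy regions 1, 3 and 13, at 125, 92.9, 84.9 and 134 CPM in peri-injured regions 6, 9, 10 and 12, and at 47, 68.6, 50.9, 27.5 and 46.1 CPM in the injured regions. Region 13 was thus the lowest of the healthy regions outside the macrophages, and its non-immune value rested on 4 counts.

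RTS0073556 had 65 counts in region 13 and 1 and 2 in healthy regions 1 and 3. It had 2, 0, 1 and 1 counts in the peri-injured and 2, 4, 2, 5 and 1 in the injured CD68 segments, in the order of regions used above. In the non-immune compartment it lay at 62.3 CPM in region 13, from 5 counts, against 24.5 and 48.2 CPM in regions 1 and 3. The remaining 9 non-immune segments lay at 16.1 to 34.8 CPM. Region 13 was therefore highest in both compartments, at 26.0 times the next CD68 segment and 2.67 times the median of the other non-immune segments.

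RTS0073211 had 47 counts in region 1, 2 in region 3 and 0 in region 13. Its peri-injured counts were 1, 0, 1 and 0, and its injured counts were 1, 3, 2, 3 and 0. The non-immune values were 34.3, 28.1 and 0 CPM in regions 1, 3 and 13, 14.3, 10.7, 8.94 and 19.9 CPM in the peri-injured and 16.8, 17.1, 13.9, 25.4 and 14 CPM in the injured regions. Its host was again the highest non-immune segment, at 7 counts, but region 3 held 7 counts as well.

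In the peri-injured regions, the leading members were RTS0078421, RTS0080521 and RTS0078014. RTS0078421 had the most host counts of all members, 139 in region 10, against 1, 0 and 0 in regions 6, 9 and 12. It had 4, 0 and 1 counts in healthy regions 1, 3 and 13 and 1, 5, 4, 2 and 3 in the injured regions, so that region 10 held 86.9% of its CD68 counts. Its non-immune level in region 10 was 23.8 CPM, the tenth highest of 12 and the lowest of the peri-injured class, where regions 6, 9 and 12 lay at 35.8, 39.3 and 24.8 CPM. Healthy regions 1, 3 and 13 lay at 19.6, 28.1 and 74.8 CPM, and the injured regions at 20.1, 37.1, 39.4, 38.1 and 34.1 CPM.

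RTS0080521 was also hosted by region 10, with 69 counts against 6, 0 and 0 in regions 6, 9 and 12. The healthy CD68 segments had 4, 2 and 4 counts, and the injured ones 0, 2, 3, 2 and 5. The non-immune level in region 10 was 38.7 CPM, between the 12.5 CPM of region 13 and the 54.7 CPM of region 12, and ranked 8 of 12. The remaining non-immune values were 39.2 and 40.1 CPM in regions 1 and 3, 46.6 and 25 CPM in regions 6 and 9, and 26.9, 25.7, 50.9, 48.7 and 40.1 CPM in the injured regions.

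RTS0078014 had 67 counts in region 12 and 1, 0 and 2 in regions 6, 9 and 10. Its healthy counts were 0, 2 and 1, and its injured counts were 4, 0, 7, 0 and 2. In the non-immune compartment region 12 was highest at 44.7 CPM, from 9 counts, and region 9 was at 0. The other peri-injured regions 6 and 10 lay at 28.7 and 29.8 CPM, the healthy ones at 19.6, 32.1 and 12.5 CPM and the injured ones at 40.3, 42.8, 25.5, 29.7 and 22.1 CPM. The host was 21.5 times the next CD68 segment but was close to the next non-immune segment, at 42.8 CPM.

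In the injured regions, RTS0077054, RTS0066276 and RTS0070026 led. RTS0077054 had 118 counts in region 8 and 6, 10, 4 and 9 in regions 4, 5, 7 and 11. Its healthy counts were 4, 3 and 6, and its peri-injured counts were 7, 0, 5 and 1. The non-immune segments were nearly level, from 53.9 to 87.2 CPM, with region 8 at 86.9 CPM from 41 counts. This was the best counted of these 9 members in its non-immune host, and the groups overlapped there throughout.

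RTS0066276 had 63 counts in region 11 and 3, 3, 3 and 1 in regions 4, 5, 7 and 8. The healthy segments had 5, 7 and 0 counts and the peri-injured ones 4, 0, 1 and 1. In the non-immune segment of region 11 it lay at 30.1 CPM, below regions 4, 5, 7 and 8 at 47, 42.8, 41.7 and 55.1 CPM. The healthy non-immune values were 58.8, 24.1 and 37.4 CPM and the peri-injured ones 41.2, 46.4, 34.3 and 34.8 CPM.

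RTS0070026 had 61 counts in region 5 and 3, 1, 2 and 4 in regions 4, 7, 8 and 11. It had 3, 6 and 2 counts in the healthy and 8, 0, 7 and 1 in the peri-injured segments, and at a ratio of 4.78 it was among the members closest to the limit. Its non-immune level in region 5 was 34.3 CPM, the eleventh highest of the 12. The other injured regions lay at 50.4, 46.3, 40.3 and 34.1 CPM, the healthy ones at 34.3, 52.2 and 87.2 CPM and the peri-injured ones at 39.4, 39.3, 41.7 and 69.6 CPM.

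**Figure D3:**
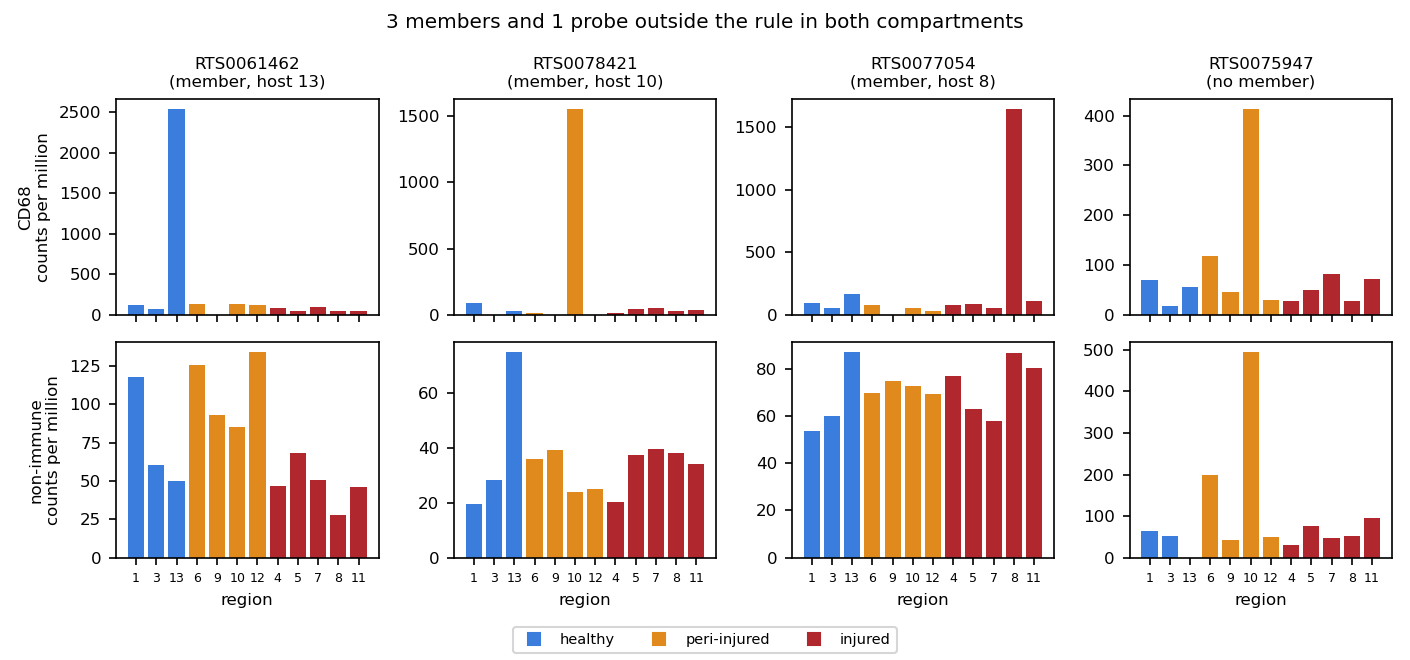
Level in CPM of members RTS0061462, RTS0078421 and RTS0077054 and of RTS0075947, which is no member, in the CD68 (top) and non-immune (bottom) segments of the 12 regions, 1 bar per segment without replicates, each panel with its own y axis from 0. The members have 1 tall CD68 bar of 1553 to 2534 CPM and no such bar below it, while RTS0075947 is highest in region 10 in both compartments, at 413 and 495 CPM.

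In the median over the members, the non-immune level in the host region was near that of the other regions. The CPM of the non-immune host segment was 0 to 2.67 times the median of the other 11 (median 0.99). It was above that median in 16 members and not above it in 17, and it was at least 2 times as high in 2 members, RTS0073211 and RTS0073556. The host was the highest of the 12 non-immune segments in 6 members, and in 3 when all segments were thinned to the same total. Over all probes in the same 11 regions, a region was highest in 8.09% of cases, with a range from 3.5% in region 6 to 18.3% in region 13. The 6 of 33 members are a larger share than 8.09%. That value weighs the 11 regions equally, whereas the members are spread unequally over them, so it is not an exact background for the members. In the shallow region 13, which held 2 of these 6 members, single counts weigh more. One member, RTS0073463, had 28 counts in the CD68 segment of region 13 and 0 of 80259 in its non-immune segment, which allows up to 37.4 CPM, when the other 11 non-immune segments lay at 22.9 to 52.2 CPM. In an exact test 1 segment against 11 cannot give a p below 0.0833, so the ranks were not tested.

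**Figure D4:**
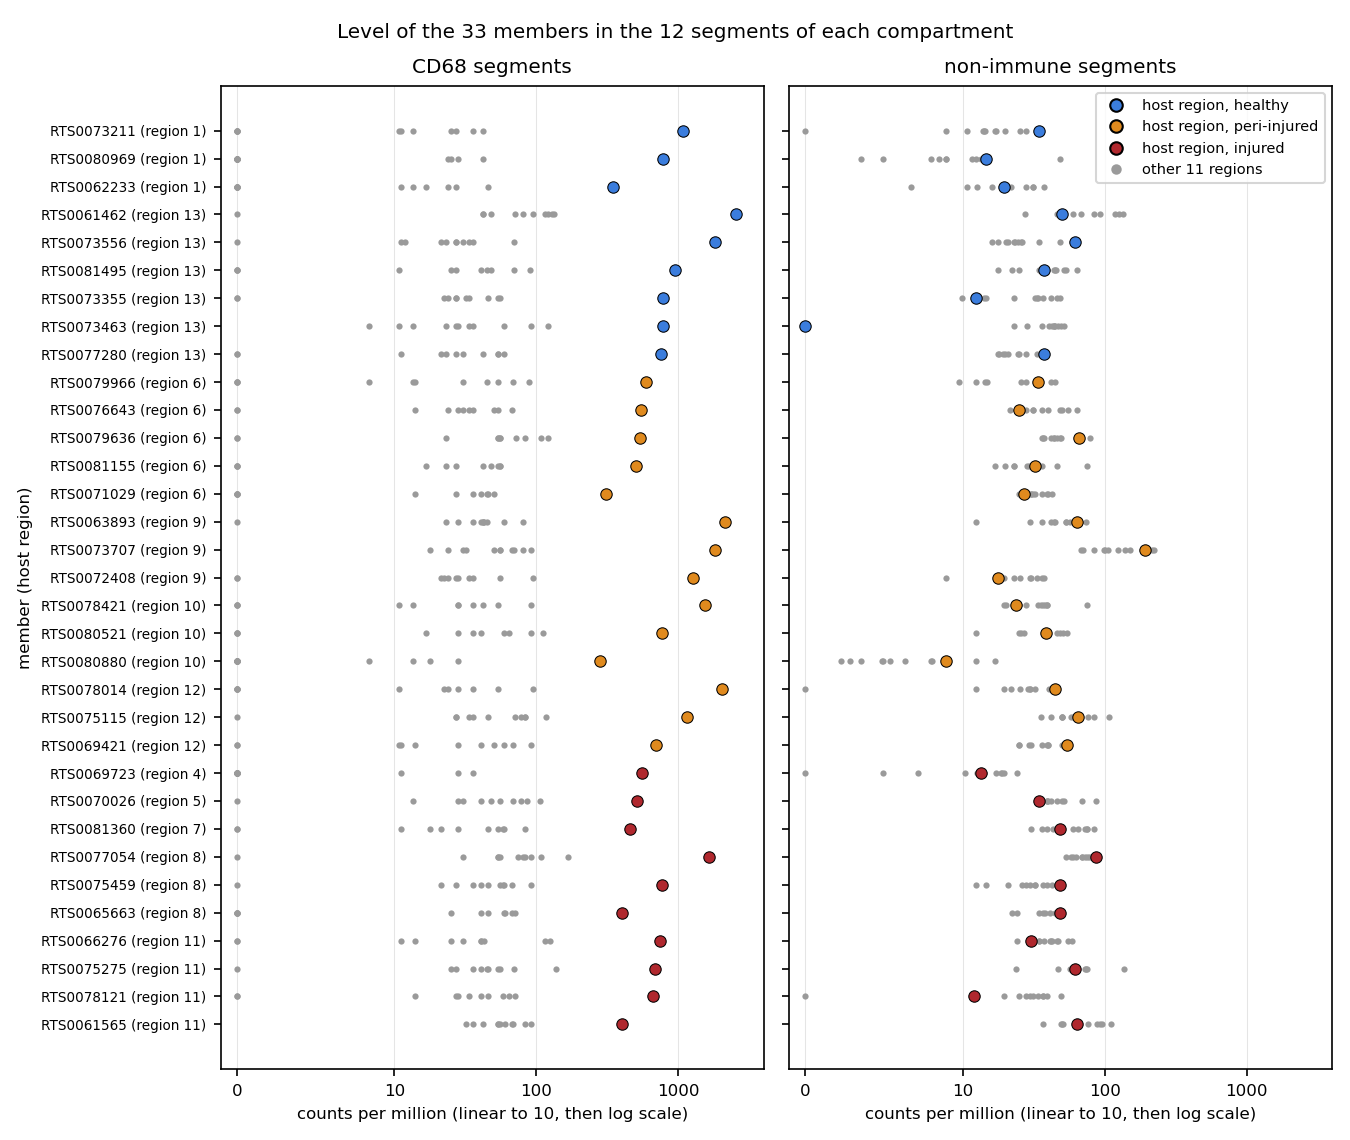
Level of each of the 33 members (rows, with the host region) in the 12 CD68 segments (left) and the 12 non-immune segments (right), in CPM on an axis that is linear to 10 and logarithmic above. Large coloured points are the host region and small grey points the other 11. Host points lie at 279 to 2534 CPM on the left, which is what the rule chose. On the right they fall mostly among the grey points and are the highest of the row in 6 members.

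In the edgeR quasi-likelihood test of the non-immune host segment against the other segments of its class, 0 of the 33 members were called in either direction, with an adjusted p of 0.752 or more after Benjamini-Hochberg adjustment. Over all 20175 probes, the 11 fits called 1 to 20 probes each, or 0.0514% of the tests, so that a count of 0 among 33 is near the background and is not a result about the members. DESeq2 called 0 of the 30 members to which it gave an adjusted p (the 3 members of region 10 received none). Limma called 0 higher and 1 lower, RTS0073463, which is hosted by region 13. The limma fit of region 13 called 280 of the 20175 probes higher and 2353 lower, so that this call is not a result about the member. At an unadjusted p under 0.05, 0 members were higher and 2 were lower, against 4.81% of all tests in either direction. The lower 2 were RTS0073463, whose count of 0 permits no fold change, and RTS0078121, with 56 CD68 and 6 non-immune counts in region 11 (log2 fold change -1.49 ± 0.55 SE, adjusted p = 1 by edgeR with Benjamini-Hochberg). Both were singled out after their values were seen.

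Among the 32 members with a count in their non-immune host segment, the log2 fold change there ranged from -1.55 to 0.89 with a median of 0.07, and 18 were positive and 14 negative. The upper 95% limit was below 2 on the log2 scale, which is 4-fold, in 28 of them and reached 2.70 at most. In all 32 it was below the log2 ratio of the CD68 host to the next highest CD68 segment, which ran from 2.14 to 4.72. The ratio was fixed by the rule and compares with a single segment, whereas the fold change compares with the class, so the distance between them is a description. In region 13, the fit placed the median of all probes at -0.26 on the log2 scale, and the fold changes of its members are to be read against that value. In the other 10 host regions this median lay between -0.09 and 0.04.

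**Figure D5:**
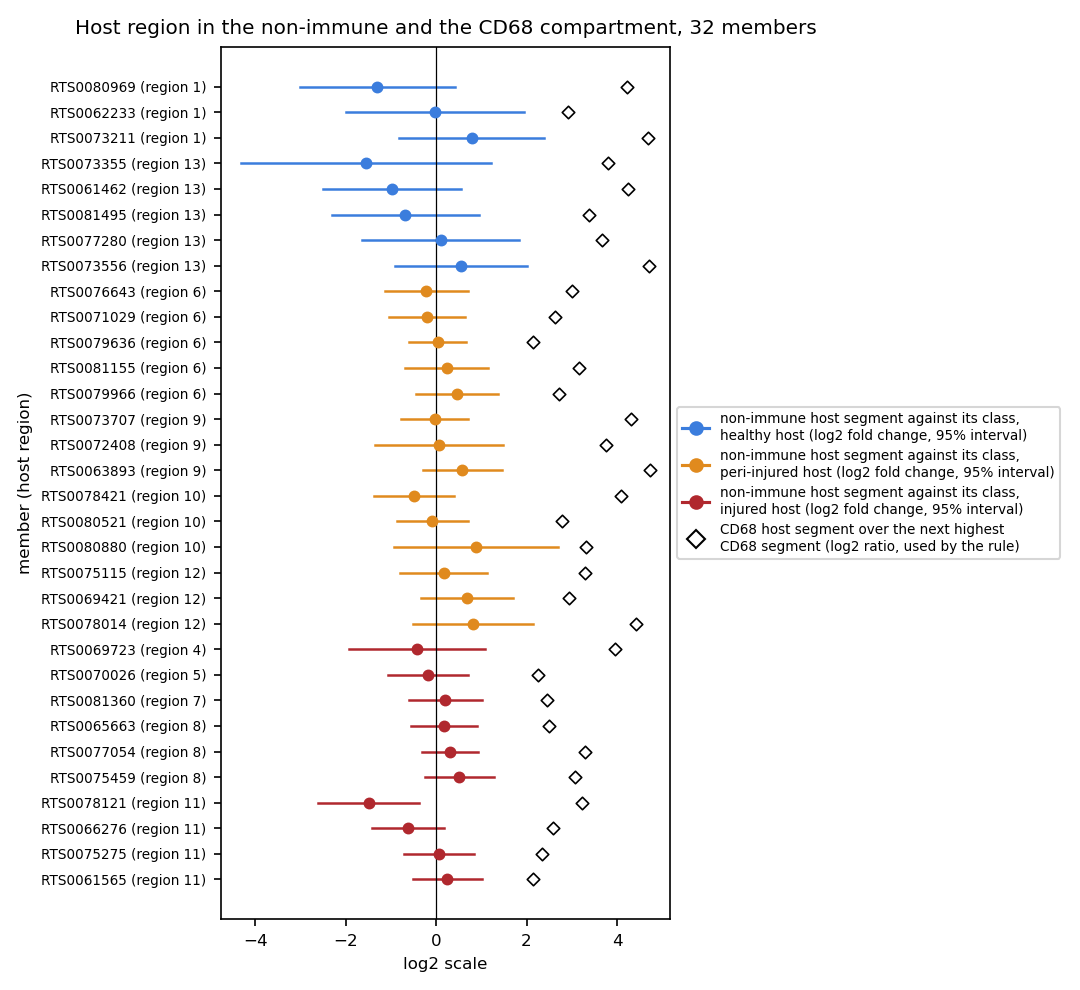
Log2 fold change of the non-immune host segment against its class with its 95% interval (filled points and lines, edgeR, coloured by class) and log2 ratio of the CD68 host segment to the next highest CD68 segment (open diamonds) for the 32 members with a count in the non-immune host segment. Of the intervals, 31 span 0, and every diamond lies to the right of the upper limit of its row.

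For the 9 members described above, the non-immune fold changes farthest from 0 were those of RTS0061462 at -0.97 ± 0.76 (SE), RTS0078014 at 0.81 ± 0.66 and RTS0073211 at 0.79 ± 0.79 on the log2 scale. The value of RTS0073211 rests on region 3, the only other healthy region where it had a non-immune count. Without region 3 the fit gave 6.66 against a region with 0 counts, which is no measure of a fold, and without region 13 it gave 0.34. The values of RTS0066276 and RTS0073556 were -0.62 ± 0.40 and 0.55 ± 0.72. RTS0078421 lay at -0.49 ± 0.44 and RTS0077054 at 0.30 ± 0.31. RTS0070026 and RTS0080521 lay at -0.18 ± 0.44 and -0.08 ± 0.39. None of these differed from the class by more than the spread between regions allows to be called.

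Although every non-immune segment was deeper than the CD68 segment of its region, 32 of the 33 members had more counts in the latter. The members summed to 1626 counts in their host CD68 segments and to 499 in the non-immune segments of the same regions. The exception was RTS0073707, with 40 CD68 and 54 non-immune counts in region 9, which was singled out after its values were seen. As shares of the segment, the CD68 level was 6.29 to 71.4 times the non-immune level in 32 members (median 20), with RTS0061565 lowest and RTS0072408 highest. Over all probes with a count in both segments of a host region, the median of this ratio was 1.07. For RTS0078421 the ratio was 65.2 (exact conditional 95% interval 38.7 to 117), for RTS0061462 it was 50.8 (19.2 to 191) and for RTS0077054 it was 18.9 (13.2 to 27.7). These intervals cover counting error only, since a region has 1 segment of each kind, and the numerator was what the rule chose.

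A probe just under the ratio limit shows how a concentration shared by both compartments looks in these data. RTS0075947, chosen for this after its values were seen, had 37 CD68 counts in region 10, or 47.4% of its CD68 counts, at 3.52 times the next highest share, and was therefore no member. Its peri-injured CD68 counts were 11, 1, 37 and 1 in regions 6, 9, 10 and 12, against 1 to 3 counts in the healthy and 2 to 6 in the injured regions. In the non-immune segments it had 111, 12, 332 and 10 counts in the same peri-injured regions, 13, 13 and 0 in the healthy and 9, 27, 20, 25 and 47 in the injured ones. Region 10 and then region 6 were highest in both compartments for this probe, by counts and by CPM. By non-immune CPM, region 10 ranked 10, 8 and 3 of 12 for RTS0078421, RTS0080521 and RTS0080880, the 3 members hosted there, although RTS0080521 had its most non-immune counts in regions 10 and 6 (26 each), the 2 deepest segments.

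The same rule applied to the non-immune segments found 16 probes, none of them a member, in 11 of the 12 regions. When the non-immune counts were thinned to the CD68 totals, 17 probes met it, and again none was a member. In the CD68 segment of the same region, 15 of the 16 had 8 counts or fewer and 5 had none. Low counts are common in CD68 segments, where 806 of the 20175 probes reached 15 counts in the segment of their highest share. The share of all probes with 8 counts or fewer in a given CD68 segment was not counted, so the 15 of 16 have no background beside them. RTS0073598 had 973 counts in the non-immune segment of region 6 and 3 in its CD68 segment. In 2 of the 16, the CD68 segment of the region was also the highest of the 12, and the share over all probes was not counted. RTS0060976 had 273 non-immune and 8 CD68 counts in region 8, and RTS0081477 had 1965 non-immune and 678 CD68 counts in region 10. RTS0081477 was high in several CD68 segments (446 counts in region 6 and 390 in region 5), and with 37.7% of its CD68 counts in region 10 and a ratio of 1.59 it met neither the share nor the ratio criterion. These 3 probes were singled out after their values were seen.

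A member is high in 1 of 3 to 5 regions of its class. Calls between the CD68 classes use the counts that chose the members and are a description. Among the 6000 probes with the highest mean share, which included 30 members, 14 members were called between peri-injured and injured regions (8 higher and 6 lower), 8 between peri-injured and healthy (2 higher and 6 lower) and 5 between injured and healthy (all lower). Of the 6000 probes, 4.42%, 1.52% and 0.717% were called in these comparisons. In each case the member was higher in the class of its host. With every probe tested, 22, 21 and 10 of the 33 members were called, when 2.34%, 0.818% and 0.283% of all 20175 probes were. Among the 6000 probes, leaving out region 6 lowered the first count to 8 of 27 members tested. All calls of that comparison fell from 184 higher and 81 lower to 81 and 27. Leaving out region 13 lowered the other counts to 2 and 2 of 26. All calls there fell from 74 higher and 17 lower to 36 and 11, and from 17 and 26 to 8 and 16. Leaving out region 3 raised the last count to 8 of 31, with 10 probes higher and 18 lower. Without region 9 the second count was 11 of 28, with 100 probes higher and 19 lower. These counts are descriptions too.

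Without the host region and with every probe tested, 0 members were called by edgeR in any of the 3 comparisons. In these fits, of 20174 or 20175 probes, 255 to 447 were higher and 15 to 45 lower between peri-injured and injured regions. Between peri-injured and healthy regions 68 to 142 were higher and 10 to 24 lower, and between injured and healthy 10 to 20 and 27 to 48. A count of 0 among 33 is thus near the background and is not a result about the members. At an unadjusted p under 0.05 there were 4, 3 and 5 members, and the share over all probes was not counted. Of the calls made with the host, 11 of 22, 11 of 21 and 7 of 10 had the opposite sign without it. For RTS0078421, the log2 fold change of peri-injured over injured regions was 3.83 with region 10 and -1.96 without it. For RTS0077054 it was -2.73 with region 8 and -0.41 without it, and for RTS0061462 the change of injured over healthy regions was -3.89 with region 13 and -0.41 without it. Because the rule picked probes that are high in 1 segment, the calls and their loss without that segment are descriptions. Their cause was not tested.

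Class differences in the non-immune compartment were counted in the same way. Between peri-injured and injured regions 4 of the 33 (12.1%) were called, all higher in the peri-injured class, against 7.69% of all 20175 probes in either direction. A count of 4 among 33 is near that share and is not a result about the members, so the 4 are given as a description. Between peri-injured and healthy regions 0 members were called by edgeR, against 1.64% of all probes. Between injured and healthy regions also 0 were called, against 0.689% of all probes. Both counts of 0 are near these shares. At an unadjusted p under 0.05 there were 7 and 5 members, and the unadjusted share over all probes was not counted, so these have no background beside them. The 4 were RTS0061462, RTS0073707, RTS0079636 and RTS0061565, with log2 fold changes of 1.25 ± 0.23, 1.21 ± 0.21, 0.75 ± 0.21 and 0.78 ± 0.22 (SE). Their edgeR p-values after Benjamini-Hochberg adjustment were 0.00027, 0.00012, 0.0153 and 0.019. Their hosts were region 13 (healthy), regions 9 and 6 (peri-injured) and region 11 (injured), so that the class in which they were higher outside the macrophages was the class of the host in 2 of the 4. Without region 6, 2 of the 33 members were called. Over all 20175 probes, the calls of that comparison fell from 1131 higher and 420 lower to 713 and 156. The lower count of members is thus not a result about them.

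RTS0073707 was the most abundant of these 4 in the non-immune segments, with 121, 54, 94 and 45 counts in peri-injured regions 6, 9, 10 and 12, and 21, 35, 46, 32 and 42 in the injured regions. The healthy non-immune segments held 31, 31 and 8 counts. In CD68 segments it had 40 counts in region 9 and 1 to 6 in each of the others, where region 6, its highest non-immune segment by count, had 3. By CPM, the host, region 9, ranked 3 of the 12 non-immune segments at 193 CPM, 1.81 times the median of the other 11. The highest non-immune segment by CPM lay at 224 CPM. The 1 to 6 counts in the other CD68 segments are too few to order the regions.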

How the data were processed

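Whole-transcriptome probe counts (NanoString GeoMx, mouse panel) of 12 CD68 and 12 non-immune segments were analysed. The deposited count files hold raw counts for each probe. Per the file headers, the authors obtained them with the GeoMx NGS Pipeline 2.3.4, in which reads are matched to probe barcodes and copies of one molecule are merged by its molecular identifier. The files were neither filtered nor normalized, and absent probes were read as 0. Segment areas in the authors' deposited worksheet were read only to check segments. Columns mapped to no sample: 0.

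The members and lists were chosen with earlier results of these data known. For each of the 11 host regions, edgeR 4.0.16 (R 4.3.3) fitted the 12 non-immune segments with a quasi-likelihood model, region class terms and 1 term for the host segment, upper quartile normalization and all probes. The lone host segment is assumed to vary like the others. Class comparisons used 1 fit per compartment. A probe was called at a Benjamini-Hochberg adjusted p under 0.05. The scripts were tested on simulated data. Members with the most host counts (3 per class) and probes nearest to each limit of the rule were named. Alternatives were other normalizations, filters, limits of the rule, DESeq2 1.42.0, limma 3.58.1, thinned counts and leaving out regions.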

Additional observations from a re-analysis of the deposited data

Results flagged for a closer look

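Among the 66 combinations of a member with the 4 peri-injured or the 5 injured non-immune segments, 6 held a segment farther from its group than Dixon's criterion allows at the 95% level. The nominal rate is about 1 in 20, but the share of all probes that the criterion flags was not counted. The 6 of 66 thus have no background beside them and are not a result about the members. In 5 of the 6 the segment was not the member's host. RTS0070026 was high in region 12 at 69.6 CPM (14 counts), against 39.3 to 41.7 CPM in the other peri-injured regions, and its host is region 5. Among injured regions, RTS0073211 was high in region 8 at 25.4 CPM (12 counts) against 13.9 to 17.1 CPM, and RTS0071029 was high in region 8 at 42.4 CPM (20 counts) against 28.6 to 32.1 CPM. In region 4, RTS0078421 was low at 20.1 CPM (6 counts) against 34.1 to 39.4 CPM, and RTS0075275 was low at 47 CPM (14 counts) against 62.2 to 63.6 CPM. The host case was RTS0078121, low in region 11 at 12 CPM (6 counts) against 31.4 to 37 CPM in the other injured regions, while its CD68 counts in region 11 were 56.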

How the results depend on the processing

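No paired analysis was possible because the tested comparison sets 1 non-immune segment against others of the same compartment, where each region number occurs once. Leaving out each other region, TMM, DESeq2 (30 of 33 members with an adjusted p), limma, both filters, no class term, thinning, adjustment over all fits and the remaining limits of the rule kept the number of members called higher in the non-immune host at 0, but a ratio limit of 3 gave 1 of 43 (RTS0075947). The filters tested 9 (6000 probes) and 29 (edgeR's filter) of the 33 members. The number of members, 33, became 20 at a ratio of 8, 16 for the rule on the non-immune segments and 17 after thinning, and 27 to 36 with a CD68 segment left out, 27 being without region 13. The host was highest in 3 rather than 6 members after thinning and in 4 to 7 with a region left out. Members called between CD68 classes (peri-injured against injured, peri-injured against healthy, injured against healthy) numbered 14, 8 and 5. They became 22, 21 and 10 with no filter, 0, 0 and 0 without the host region (of 8 members left by the filter) and 0, 0 and 0 without both filter and host, an alternative chosen after seeing the data. These counts of 0 are near the share of all probes called in the same fits. With 1 CD68 segment left out, also chosen then, they numbered 8 to 14, 2 to 11 and 2 to 8. The low ends were without region 6 (8) and region 13 (2 and 2), and without region 3 injured against healthy gave 8. The number of members tested and the calls over all probes changed in these fits too, as given above. In the non-immune segments, the 4 members called between peri-injured and injured regions became 2 of 9 among 6000 probes, 5 with TMM and 2 to 5 with a segment left out. Over all probes tested, 634 were higher and 951 lower among the 6000, and 1467 and 271 of 20175 with TMM. Of 219 alternative log2 fold changes of 12 named members, 10 changed sign and 0 were called. Those from settings other than a region left out were 0.00 for RTS0073211 (thinned), 0.00 and 0.06 for RTS0080521 (limma, no class term), 1.44 for RTS0070026 (thinned), and -0.08 and -0.48 for RTS0079636 (6000 probes, thinned). With a region left out, RTS0080521 ranged from -0.31 to 0.14, RTS0062233 from -0.71 to 0.34 and RTS0079636 from -0.08 to 0.11. The cause was not tested for any of these. At a median standard error of 0.45 on the log2 scale, the upper limit was below 1 (2-fold) in 15 of 32 members, so that the interval did not exclude a 2-fold higher level in the others.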
